A study of Drosophila melanogaster with 6 samples.

Results

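Drosomycins, Bomanins and Metchnikowin are small secreted peptides of the fly immune defence, and 10 of their genes are described here out of 16196 genes in the count tables. They are Drosomycin (Drs) and the Drosomycin-like genes Drsl2, Drsl3, Drsl4 and Drsl5, Metchnikowin (Mtk), and the Bomanins BomS1, BomS2, BomS3 and BomBc1. The genes were taken by name, and all 10 were found in the 6 tables. RNA was sequenced from whole Drosophila melanogaster larvae of the 3rd instar, 4 days after egg laying, in 6 libraries with 1 library per genotype. The control larvae were Tublin Gal4/S-T. The other libraries came from strains labelled Tublin Gal4; UAS-C1 to Tublin Gal4; UAS-C5, here C1 to C5. Each of these strains carried 1 copy of a gene of the newt Notophthalmus viridescens, integrated at an attP site with ϕC31 integrase. The Gal4 driver was present in all 6 genotypes, and a tubulin driver acts in nearly all tissues. Each candidate was represented by 1 strain. The number and sex of the larvae in a library are not given in the labels.

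In flies, fungi and many Gram-positive bacteria are sensed in the haemolymph by recognition proteins that start a cascade of serine proteases. The cascade cleaves the ligand Spätzle, which binds the receptor Toll. Inside the cell Myd88, tube and pelle pass the signal on, the inhibitor Cactus is degraded, and the NF-kappaB factors Dif and Dorsal switch on peptide genes, mainly in the fat body. The Imd pathway, which runs from the receptor PGRP-LC to the factor Relish, drives Attacin, Cecropin and Diptericin genes and also contributes to some Toll targets, Mtk among them. Drs can also be expressed in epithelia such as the trachea.

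The libraries held between 75070322 (C2) and 86894127 (C1) counts on genes, and levels are given as counts per 1000000 (CPM) on totals scaled by the TMM method. With no replicate of any genotype there is no test and no p-value. A gene was called higher or lower than the control at a fold of at least 2 with a 95% counting interval of the ratio that excluded 1, and all 5 comparisons share the 1 control library. Intervals cover counting error only, and differences are between libraries. RNA of 11 male germline genes separated the libraries, with a summed level of 2357 CPM in C4 and 1095 CPM in the control, against 7.85 to 10.7 CPM in the others. The 2 listed RNAs of male soma, roX1 and roX2, summed to 339.9 CPM in C4 and 215.3 CPM in the control. In C1, C2, C3 and C5 they summed to between 11.9 and 16.2 CPM, so comparisons of these 4 with the control also differ in male RNA. Genes of late salivary glands (9 Eig71E genes) summed to 695 CPM in C3 and 1472 CPM in C4 and to between 2.69 and 6.32 CPM in the other 4. Defining genes of fat body, haemocytes, trachea, midgut and epidermis were detected in each of the 6 libraries. In whole larvae, fewer cells of a type and less RNA per cell cannot be told apart.

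By the number of genes called, peptide RNA differed from the control most in C4 and C2. The summed level of the 10 genes ranked otherwise, with 1640 CPM in C4 near the 1362 CPM of the control. It was 1338 CPM in C3, 729.2 in C1, 463.7 in C5 and 104 in C2. In C4, 7 of the 10 genes were called higher than the control, namely Drs, Drsl2, Drsl3 and the 4 Bomanins, and 1, Drsl4, was called lower. In C2, Drsl2, Drsl4, Drsl5 and Mtk were called lower and BomS1 and BomS3 higher. C3 had 3 higher (Drs, Drsl2, Drsl3) and 1 lower (Mtk), C1 had 2 higher (Drs, Drsl2) and 3 lower (Drsl4, Drsl5, Mtk), and C5 had 1 higher (Drs) and 3 lower (Drsl2, Drsl4, Drsl5). Among all genes in the tables, C4 had 10.7% called higher and 3.47% called lower. C2 had 9.33% called higher and 21.3% lower, C3 6.48% and 23.2%, C1 5.3% and 20.1%, and C5 5.01% and 20.6%. These shares include male germline genes. Of the 11 listed, 11 were lower in C1, C2 and C5 and 10 in C3, while 8 were higher in C4. With plain CPM, C1 had 1 member higher and 3 lower, and C5 had 1 higher and 5 lower. A mean of 1 CPM over the 6 libraries, the limit for a measured gene, was reached by 5 members (Drs, Drsl2, Drsl5, Mtk and BomS3). BomS3 reached it through C4 alone, since its mean over the other 5 libraries was 0.366 CPM.

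**Figure D1:**
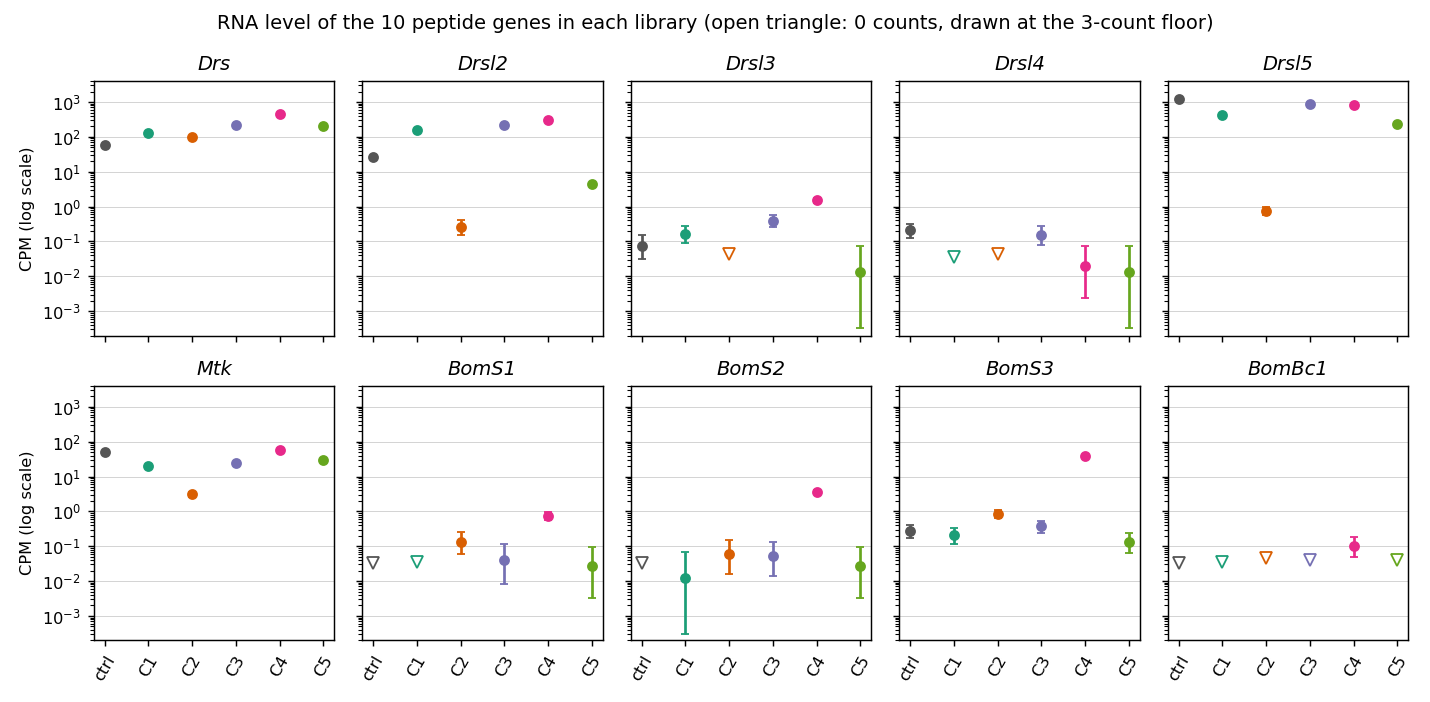
Level of each peptide gene (CPM, log axis) in the control (ctrl) and C1 to C5, 1 library each, with bars for the exact 95% Poisson interval of the count and open triangles at the level of 3 counts where a library had 0 counts. C2 stands lowest for Drsl2 (0.254 CPM), Drsl5 (0.748 CPM) and Mtk (3.07 CPM), and C4 stands apart from the rest for the 4 Bomanins.

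Drs encodes the main inducible antifungal peptide of flies. Its gene (FBgn0283461) has 1 exon and lies on chromosome arm 3L at 3369556 to 3369942 of dm6, plus strand. Drs stood at 442 CPM in C4, 222 in C3, 199.7 in C5, 128.5 in C1, 98.9 in C2 and 56.9 in the control. The control was the lowest and C4 the highest, and each library differed from the next in that order by more than counting error. The ratio to the control was 7.78 in C4 (95% interval 7.56 to 8.01), 3.91 in C3 (3.79 to 4.03), 3.51 in C5 (3.40 to 3.62) and 2.26 in C1 (2.19 to 2.34). C2 was 1.74-fold above the control and was not called. Plain CPM and the authors' RPKM values put the C1 ratio at 0.98 and 0.98 on the log2 scale, just under the threshold of 2-fold.

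Per transcript length, Drsl5 had the highest level of the 10 genes in the control by the authors' RPKM. Drsl5 (FBgn0035434, 3L, 3316781 to 3317144) is a paralogue of Drs and lies 52411 bases from it. The stretch of 55594 bases from Drsl2 to Drs holds all the members of the family described here. Drsl5 stood at 1227 CPM in the control, 872 in C3, 798 in C4, 417.5 in C1, 230.1 in C5 and 0.748 in C2. By the authors' RPKM it ranked 20 among all genes in the control, 23 in C4, 32 in C3 and 8849 in C2. C2 stood far below every other library, with 50 counts against 17261 in C5, the next lowest. Its ratio to the control was 1640-fold lower in C2 (1244 to 2210), 5.33-fold lower in C5 (5.25 to 5.42) and 2.94-fold lower in C1 (2.90 to 2.98). C3 and C4 were 1.41-fold and 1.54-fold below the control and were not called.

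Drsl2 (FBgn0052279, 3L, 3314349 to 3314681) lies in the same group of paralogues as Drsl5 but was not ordered like it. Its level was 299 CPM in C4, 218 in C3, 162.6 in C1, 26.15 in the control, 4.33 in C5 and 0.254 in C2. C1, C3 and C4 were high, and C5 and C2 lay below the control. The ratio to the control was 11.4 in C4 (10.96 to 11.9), 8.35 in C3 (7.999 to 8.72) and 6.22 in C1 (5.95 to 6.50). It was 6.04-fold lower in C5 (5.37 to 6.80) and 103-fold lower in C2 (64.1 to 177). Drsl5 and Drsl2 thus shared the low level in C2 and C5, while in C1 Drsl2 was called higher and Drsl5 lower.

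The paralogues Drsl3 and Drsl4 between them were nearly silent. Drsl3 (FBgn0052283, 3L, 3314996 to 3315355) had 149 counts in C4, 30 in C3, 14 in C1, 7 in the control, 1 in C5 and 0 in C2. The ratio was 19.9 in C4 (9.41 to 50.3) and 5.20 in C3 (2.24 to 14.0), and in C1 the interval of 0.838 to 6.50 included 1. The 3 libraries with the most Drsl3 RNA, C4, C3 and C1, were also those with the most Drsl2 RNA. Drsl4 (FBgn0052282, 3L, 3315620 to 3315942) had 19 counts in the control and 12 in C3, against 2 in C4, 1 in C5 and 0 in C1 and C2. Against a floor of 3 counts per library it was 5.71-fold lower in C1, with a lower limit of 4.206. In C2 it was 4.596-fold lower, with a lower limit of 3.386. The ratio in C4 was 10.2-fold lower (2.46 to 90.1). At no more than 0.206 CPM these calls rest on few reads.

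The genes around the Drosomycin family that are not its paralogues varied less than Drs, Drsl2 and Drsl5. Between Drsl5 and Drs lie 52411 bases with 11 other genes in the table, 2 of them the further paralogues Drsl1 and Drsl6. Drsl1 stood at no more than 0.299 CPM and Drsl6 at no more than 0.0599 CPM in any library. Near the floor, Drsl1 was called higher than the control in C1, C2 and C3, on 10, 20 and 21 counts against 2. PIG-C, the neighbour of Drsl5, ranged only from 2.60 to 4.46 CPM. kst, the spectrin gene beside Drs, ranged from 197 to 315 CPM, and Ythdc1 on the other side of Drs from 168 to 236 CPM. CG12016, which shares its coordinates with Dpm2, varied more, from 29.6 CPM in C2 to 160.1 CPM in C3. These neighbours were chosen for their place, except CG12016, which was picked after its values were seen.

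**Figure D2:**
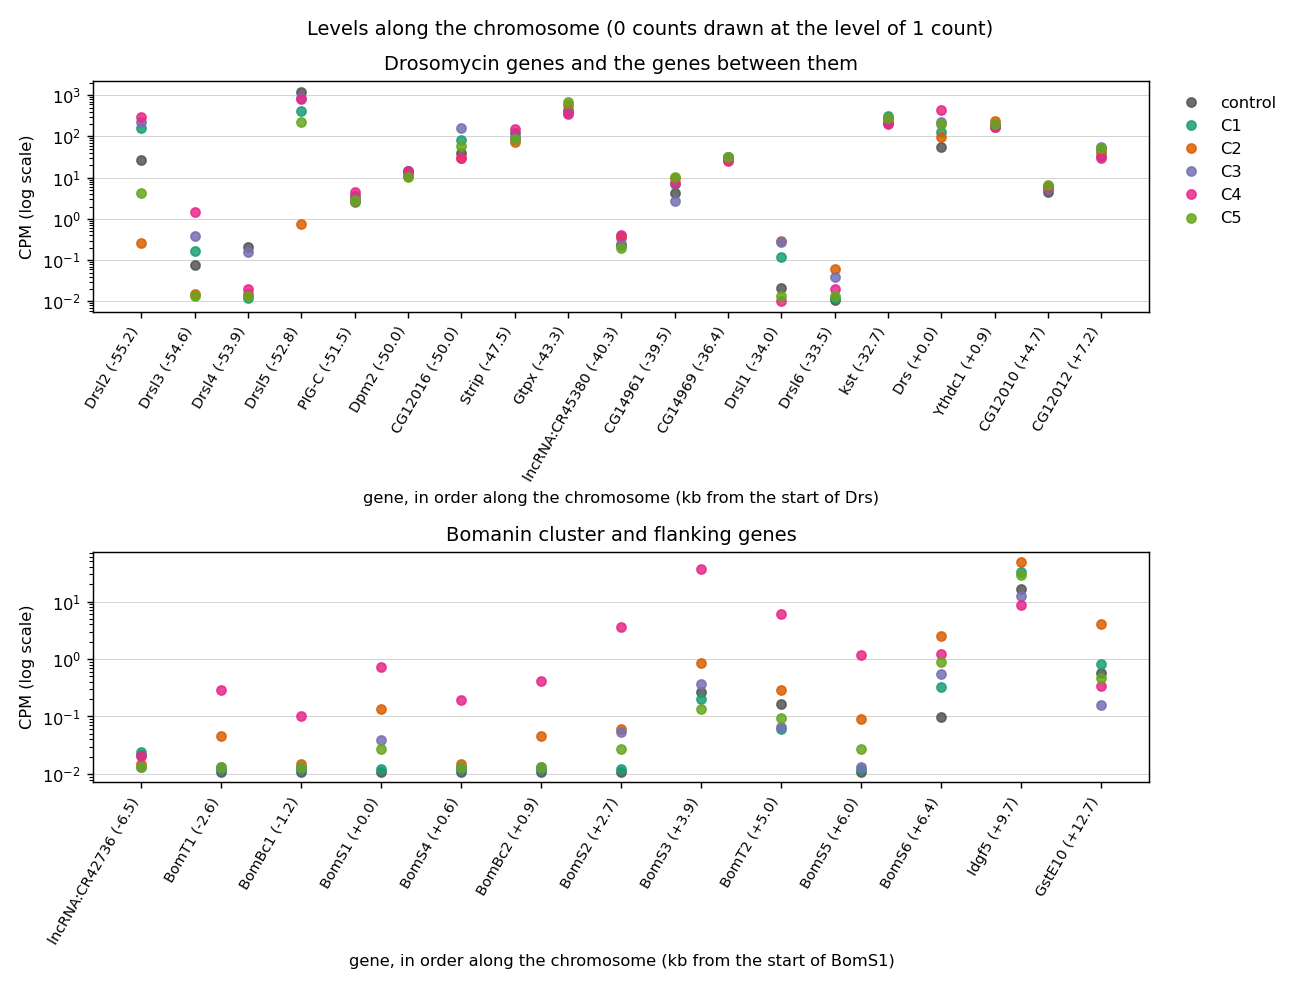
Levels (CPM, log axis) of the genes along the Drosomycin region (upper panel) and the Bomanin cluster (lower panel), in chromosome order with the distance in kb from the start of Drs or BomS1, 1 point per library, 0 counts drawn at the level of 1 count. Drsl2 and Drsl5 spread over a factor of 1175 and 1640 between libraries while PIG-C stayed between 2.60 and 4.46 CPM, and C4 is the highest library for 9 of 10 Bomanin genes of the cluster.

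Metchnikowin is a proline-rich peptide active against fungi and Gram-positive bacteria. Mtk (FBgn0014865, chromosome arm 2R, 15408846 to 15409113) has 1 exon and lies within the longer gene Stacl on the same strand, where it overlaps none of the annotated exons of Stacl. Mtk stood at 57.7 CPM in C4, 51.7 in the control, 29.4 in C5, 24.3 in C3, 20.2 in C1 and 3.07 in C2. C4 and the control were the high libraries and C2 the lowest. The level was 16.8-fold lower than the control in C2 (14.6 to 19.5), 2.56-fold lower in C1 (2.42 to 2.71) and 2.12-fold lower in C3 (2.01 to 2.24). In C5 it was 1.76-fold lower and was not called, and with plain CPM that difference was past the threshold. C4 was 1.12-fold above the control (1.08 to 1.16), so the library in which Drs was 7.78-fold higher showed nearly the control level of Mtk. Stacl itself ranged from 16.8 CPM in the control to 36.7 CPM in C2, where Mtk was lowest.

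Bomanins are short peptides released into the haemolymph that flies need to survive fungal and Gram-positive infection. BomS denotes the short forms, which hold little beyond the shared Bomanin motif, and BomBc the bicipital forms, which hold the motif more than once. BomS3 (FBgn0040736, 2R, 18387895 to 18388734) had 3700 counts in C4 against 57 in C2, 28 in C3, 25 in the control, 17 in C1 and 10 in C5. As levels these were 37.5 CPM in C4 and 0.133 to 0.853 CPM in the other 5 libraries. The ratio of C4 to the control was 138 (93.5 to 214). C2 was 3.14-fold above the control (1.93 to 5.25), and C1, C3 and C5 had intervals that included 1. In C4, 95.03% of the BomS3 counts were assigned to the shorter of its 2 transcripts.

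BomS2 (FBgn0025583, 2R, 18386602 to 18387030) had 361 counts in C4, 4 in C2, 4 in C3, 2 in C5, 1 in C1 and 0 in the control. BomS1 (FBgn0034329, 2R, 18383949 to 18384378) had 73 counts in C4, 9 in C2, 3 in C3, 2 in C5 and 0 in C1 and the control. BomBc1 (FBgn0034328, 2R, 18382704 to 18383235) had 10 counts in C4 and 0 in the other 5. C4 was the high library for each, and most other libraries lay at or under 3 counts. Against the floor of 3 counts in the control library, C4 was 112-fold higher for BomS2, with a lower limit of 90.91. C4 was 22.7-fold higher for BomS1 (lower limit 18.01) and 3.11-fold higher for BomBc1 (lower limit 2.093). Against the same floor, BomS1 was 4.13-fold higher in C2, on 9 counts, with a lower limit of 2.72. Closely related copies such as the short Bomanins can share reads, and the split between them is uncertain.

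The same held along the whole cluster of 10 Bomanin genes on 2R, which spans 9237 bases from BomT1 to BomS6. Its summed level was 51.5 CPM in C4, 4.04 in C2, 1.21 in C5, 1.08 in C3, 0.627 in C1 and 0.554 in the control. In C4 all 10 genes were called higher than the control and 9 had their highest level of the 6 libraries. BomT2, a tailed form, stood at 6.14 CPM in C4 against 0.163 in the control, and BomS5 at 1.19 against 0.0109 CPM. The exception was BomS6 at the end of the cluster, named after its values were seen, which stood at 2.51 CPM in C2, 1.24 in C4, 0.893 in C5, 0.540 in C3, 0.325 in C1 and 0.0977 in the control. It was called higher than the control in each of the 5 libraries. Idgf5, the next gene beyond BomS6, stood at 8.73 CPM in C4 and 16.8 in the control. Bomanin genes outside the cluster did not stand high in C4, where BomBc3 had 0.0304 CPM and BomT3 0.0101 CPM.

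**Figure D3:**
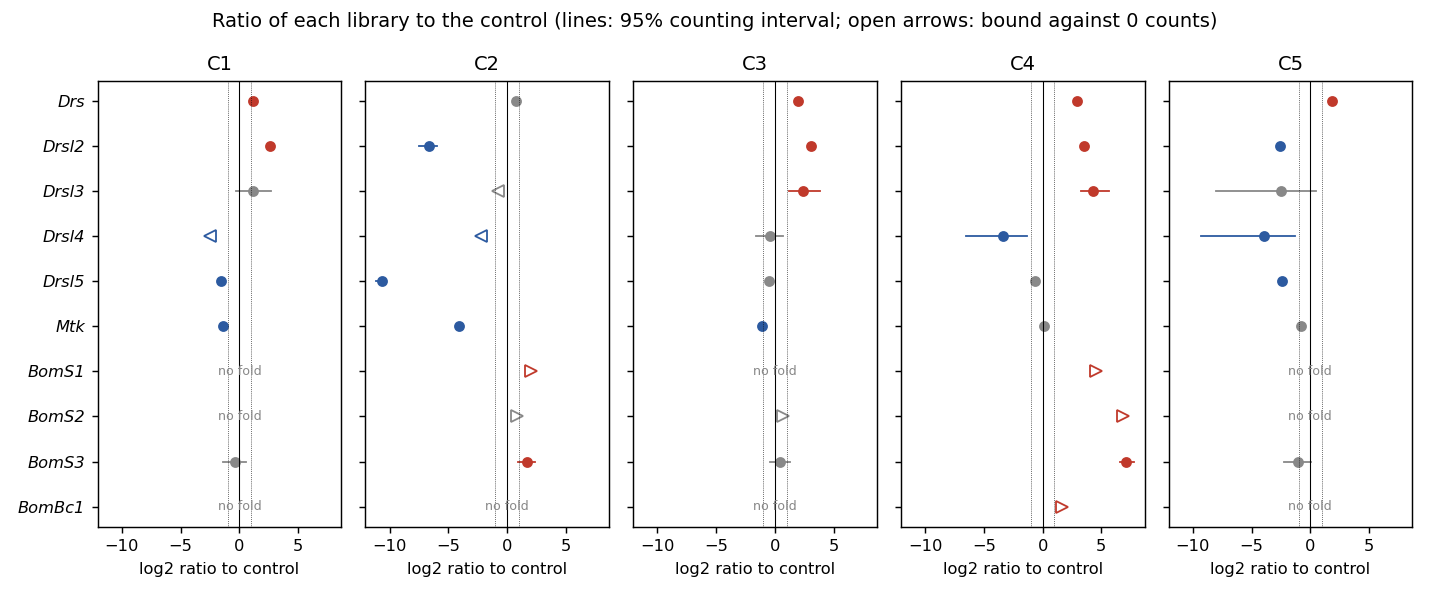
Log2 ratio of C1 to C5 to the control for the 10 peptide genes, with 95% counting intervals as lines, red for called higher, blue for called lower and grey for not called, and dotted lines at a 2-fold difference. Open arrows mark bounds against a library at 0 counts, and "no fold" marks genes at or under 3 counts in both libraries. C4 has 7 genes in red, and C2 has Drsl5 1640-fold and Drsl2 103-fold below the control.

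Setting each library against all the others gave a narrower view that does not rest on the control alone. At least 2-fold above each of the other 5 libraries, C4 had Drsl3, BomS1, BomS2, BomS3 and BomBc1, that is 5 of the 10 genes, against 7.19% of all genes in the tables. Drs missed this rule, as C4 was 1.99-fold above C3 (1.96 to 2.03). At least 2-fold below each of the other 5, C2 had Drsl2, Drsl5 and Mtk, that is 3 of the 10, against 0.901% of all genes. The remaining 10 combinations of library and direction held no member. Their shares of all genes above the other libraries were 2.65% in C2, 1.04% in C3, 0.475% in the control, 0.148% in C5 and 0.0803% in C1. Their shares below were 2.73% in C3, 0.494% in C4, 0.469% in the control, 0.247% in C5 and 0.0494% in C1.

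Levels can be set between genes only per transcript length, for which the authors' RPKM values were used. The mix of peptide RNA changed between libraries. Drsl5 made up 88.9% of the summed RPKM of the 10 genes in the control, 64.4% in C3, 56.1% in C1, 49.7% in C5 and 47.8% in C4, but 0.755% in C2. Drs made up 93.8% in C2, 40.6% in C5, 24.9% in C4, 16.2% in C1, 15.4% in C3 and 3.88% in the control. In RPKM, Drsl5 exceeded Drs by 22.9-fold in the control and by 1.22-fold in C5, while in C2 Drs exceeded Drsl5 by 124-fold. Mtk stood above Drs in the control (190.2 and 145 RPKM), and below it in each transgenic library, by 4.41-fold in C1 up to 22.3-fold in C2. The Bomanins stayed minor even in C4, where BomS3 reached 129 RPKM, 2.64% of the sum.

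**Figure D4:**
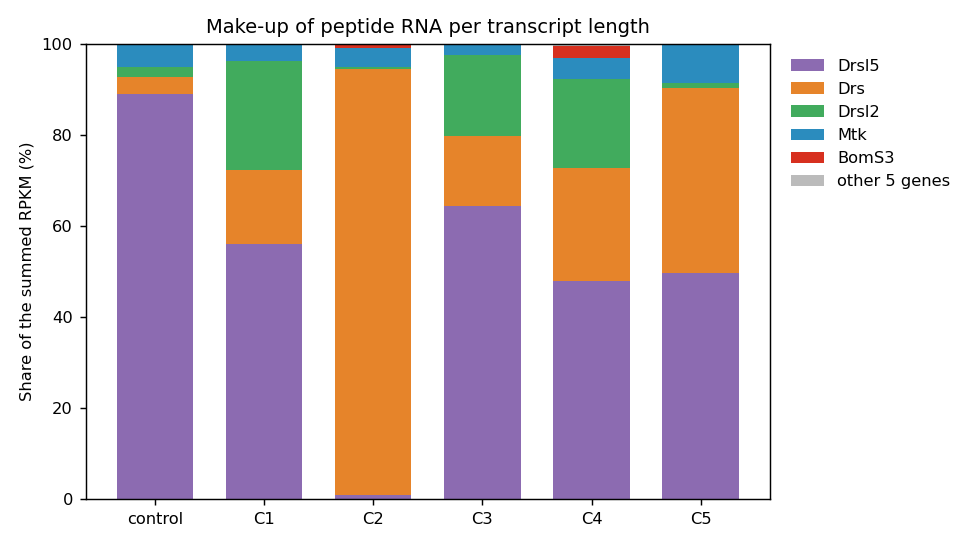
Share of each gene in the summed RPKM of the 10 peptide genes (%, authors' RPKM summed per gene), 1 bar per library. Drsl5 fills 88.9% of the control bar and 0.755% of the C2 bar, where Drs fills 93.8%.

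Upstream genes of the Toll pathway were called higher most often in C2 and C5, not in C4. The 11 listed genes upstream of Toll, all measured, encode recognition proteins, proteases, the ligand Spätzle (spz) and a protease inhibitor (nec). Of these 11 genes, 6 were called higher in C2, 5 in C5, 2 in C1, 2 in C3 and none in C4. None of them was called lower. Their median log2 ratio was 1.12 in C2, 0.96 in C5, 0.76 in C1, 0.62 in C3 and -0.12 in C4, beside a median over all measured genes of -0.03, 0.03, 0.05, -0.01 and 0.06. In C2, SPE, the protease that cleaves Spätzle, stood at 8.65 CPM against 2.78 in the control, and PGRP-SA, which recognises bacterial peptidoglycan, at 53.4 against 17.3. The proteases Hayan and psh stood at 83.0 against 34.3 CPM and at 24.0 against 10.4 CPM in C2. Also called higher in C2 were spz (63.05 against 28.95 CPM) and the inhibitor gene nec (88.97 against 40.64 CPM). In C5 nec was called higher as well (98.11 CPM). C4, the library with the most peptide RNA, held 434 CPM summed over these 11 genes, below the 467 CPM of the control. Of all measured genes, C4 had 8.97% called higher and 3.16% lower, C2 8.94% and 20.0%, C3 6.02% and 21.8%, C1 5.1% and 18.0%, and C5 4.83% and 18.6%.

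Of 10 genes from the receptor Toll to its transcription factors, 1 was called higher and 1 lower in all 5 comparisons together. The gene dl, which encodes Dorsal, had 79.8 CPM in C3 against 38.4 in the control. Dif had 18.3 CPM in C4 against 40.8 in the control, a 2.23-fold lower level in the library where Drs and the Bomanins were highest. The median log2 ratio of the list was -0.32 in C4 and 0.48 in C3.

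The lists of Imd genes did not share 1 library with the most calls. Of 11 Imd signalling genes, 3 were called higher in C3, 1 in C4 and none in C1, C2 or C5, and none was lower. In C3 the receptor gene PGRP-LC was 3.69-fold higher, Rel 3.16-fold, and PGRP-LF, an inhibitory relative of PGRP-LC, 14.6-fold at 37.7 CPM. Of 5 genes that dampen the pathway, 3 were higher in C1, namely the peptidoglycan amidase genes PGRP-SC1b (6.78-fold), PGRP-SC1a (4.40-fold) and PGRP-SC2 (2.62-fold). C2 and C5 each had 2 of these 5 higher and none lower, and C3 and C4 each had 1 higher and 1 lower. The gene pirk, an intracellular inhibitor of Imd signalling named after its values were seen, was called higher in C3 (144 CPM) and lower in C4 (25.3 CPM), against 59.7 CPM in the control. Among the Imd-linked Attacin, Cecropin, Diptericin and Drosocin genes, 11 of 11 were called higher in C4, with CecC at 67.9 CPM in C4 against 1.56 in the control, CecB at 24.1 against 0.662, and Dro at 20.7 against 0.695. In C3 the same list was split, with 4 higher and 4 lower, while C2 had 2 higher and 4 lower, C1 2 higher and 3 lower, and C5 1 higher and 3 lower. Summed over the list, the level was 504.5 CPM in C4, 98.2 in C3 and 28.6 to 52.9 in the other 4.

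Other peptide genes listed as Toll-linked were scarce, and dependence on Toll was not tested here for any gene, the Drosomycin-like genes included. Of 15 listed, 14 were in the tables, and the mean of BomT2 alone reached 1 CPM. BomT2 reached it through C4, at 6.14 CPM against 0.0603 to 0.284 CPM in the other libraries. C4 had 6 of the 14 called higher than the control and 1 lower, and C2 had 5 higher and 2 lower, beside 10.7% and 9.33% of all genes called higher. C5 had 2 higher and 2 lower, C1 2 higher and 1 lower, and C3 2 higher and none lower. The 6 in C4 were Bomanins of the cluster described above, and the 5 in C2 were BomS5 and BomS6 of that cluster, BomBc3 and BomT3 outside it, and Drsl1. Apart from BomS6 (168 counts), those in C2 rest on 6 to 20 counts. The Daisho genes Dso1 and Dso2, whose antifungal peptides are Toll targets in adults, stood at 0 and 0.0507 CPM in C4 and at 0.120 and 0.130 CPM in the control. BaraA1 and BaraA2, which encode Baramicin, had 0 counts in each of the 6 libraries.

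**Figure D5:**
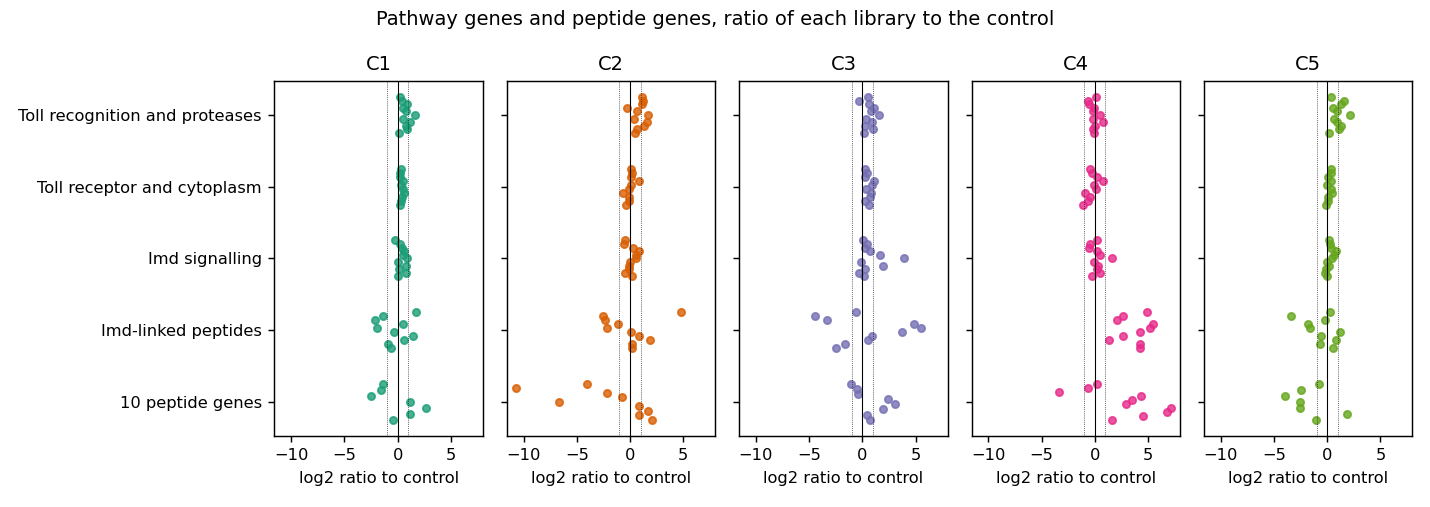
Log2 ratio to the control in C1 to C5 for single genes of the Toll and Imd pathways and the 10 peptide genes, 1 point per gene (measured genes for the pathway lists, members with a fold or a bound for the peptides), dotted lines at a 2-fold difference. In C4 all 10 measured Imd-linked peptide genes lie above 2-fold. The 11 genes of the Toll recognition and protease row, spz and nec included, do not reach it.

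The fat body, which secretes immune peptides after infection, was represented by 10 genes. Their summed level was lowest in C4 (52760 CPM) and highest in C5 (152700 CPM), with 94990 in the control. In C4, 3 of the 10 were lower than the control and none higher, while C2 and C5 each had 5 higher and none lower. The 13 haemocyte genes summed to 1111 CPM in C2, 1075 in C5, 848 in C1, 523 in the control, 407 in C4 and 372 in C3. Of these 13, C2 had 7 higher, C5 6 and C1 4 with none lower, and C3 had 4 lower and C4 1 lower with none higher. The collagen gene Col4a1 is in both the fat body and the haemocyte list, so the 2 lists are not separate. It was called higher in C2 (297.5 CPM) and C5 (289.7 CPM), against 141.2 CPM in the control. The 8 tracheal genes summed to between 921 CPM (control) and 1385 CPM (C2), and C2, C3 and C4 each had 1 higher and none lower. In C2, where Drsl2, Drsl5 and Mtk were lowest, 5 of 8 epidermal genes were higher and 1, ple, was lower (24.15 CPM against 1384 in the control), and all 9 salivary glue genes were higher. C3 differed the other way, with 2 epidermal genes higher and 4 lower and 7 of the 9 glue genes lower. C4, where the Bomanins were highest, was also the library with the most male germline RNA, with 8 of 11 genes higher than the control and no marker at 0, and with the most Eig71E RNA. The control held male germline RNA as well, with 0.272 CPM summed over the 4 Bomanins, and C3 held Eig71E RNA with 0.461 CPM. With 1 library per genotype, the genotype, larval sex, larval stage and these differences in tissue and germline RNA cannot be told apart. The part of sex, stage, tissue and germline RNA in the peptide levels was not tested.

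Genes with the most similar profile over the 6 libraries were sought among 9356 genes whose mean reached 5 CPM, by the root mean square difference of centred log2(CPM + 0.5) values. The nearest to Drs were Ctr1B, a copper transporter gene (0.47 log2 units), obst-A, a chitin-binding protein gene of cuticle (0.52), and Hsp26, a small heat shock gene (0.54). Ctr1B stood at 323 CPM in C3, 254 in C4, 243 in C5, 146 in C2, 128.5 in C1 and 72.8 in the control, so that it shared the low control but not the C4 maximum. The nearest to Mtk were CG10947 (0.61), the sodium channel gene rpk (0.63) and CG11700 (0.67). No gene came close to Drsl5, for which the 3 nearest were CG34206 (1.31), CG34193 (1.47) and ple, the tyrosine hydroxylase gene (1.57), each at its lowest in C2. The nearest to BomS2 were tobi (0.49), aay (0.54) and CG3355 (0.59), each highest in C4. None of these 3 was among the nearest when 2 was added to the CPM in place of 0.5. With that change Hsp26 also left the nearest 3 of Drs, and CG11700 those of Mtk, while the 3 of Drsl5 stayed. Within the family, Drsl5 differed from Drsl2 by 2.00 and from Drs by 3.31 log2 units on this measure.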

How the data were processed

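Total RNA of whole larvae was depleted of ribosomal RNA and made into stranded TruSeq libraries for paired-end sequencing, per the labels' protocols. Named in the submitters' processing notes, without versions or roles, are the build dm6 and the tools TopHat, Partek and bcl2fastq. Per the file headers, the values for 34966 RefSeq transcripts per library are raw read counts. Most are not whole, so the authors deposited expected counts, that is estimated counts of reads per transcript. The deposited RPKM values were computed by the authors and served here to set levels between genes. Of the transcripts, 33027 matched a gene of the RefSeq annotation of Release 6 plus ISO1 MT, and the unmatched ones held at most 0.136% of a library's counts. Counts were summed per gene and rounded, and totals were scaled with TMM factors (edgeR 4.0.16, R 4.3.3) of 0.890 to 1.19. Measured genes (11599) had a mean CPM of at least 1. Ratios have exact Clopper-Pearson 95% intervals (scipy 1.17.1), and levels have Poisson intervals. A library at 0 counts was set to 3 counts for a fold, and no fold was given where both libraries had at most 3. The calling rule was tested on simulated data with counting noise only. That setting holds no variation between larvae, so it cannot show how often such variation gives a call. DESeq2 1.42.0 supplied alternative size factors, and other alternatives are given in the closing section. The strand setting of the counting is not given in the sources used here.

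The members and gene lists were chosen with earlier results of these data known. Members are all named, as are up to 4 called genes per pathway list in the library with the most calls, and the 3 genes most like Drs, Drsl5, Mtk and BomS2. Other genes were chosen after their values were seen. Coordinates are those of the RefSeq annotation. The peptide sequences and promoters, and the gene IBIN, were not used here.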

Additional observations from a re-analysis of the deposited data

How the results depend on the processing

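Depth limits the statements on Drsl3, Drsl4, BomS1, BomS2 and BomBc1, since 3 counts lie between 0.0304 and 0.0449 CPM and most of their values are near that level. No paired analysis was possible because each genotype had 1 library. No member called higher or lower turned its direction under any scaling tried. DESeq2 size factors and TMM over genes with at least 5 CPM in every library left all 10 counts of called members within 1.5 times, as did TMM over the measured genes, which was chosen after seeing the data. Plain CPM, which shifts log2 ratios by -0.20, -0.30, -0.13, 0.12 and -0.27 in C1 to C5, left 1 member higher in C1 and made 5 lower in C5. The authors' RPKM, with no interval, gave 5 higher in C3, and 3 higher and 6 lower in C5. At a fold of at least 4, 1 member was higher and 1 lower in C1, 1 was higher in C2, 0 were lower in C3 and 0 were higher in C5. At a fold of at least 1.5, 2 were lower in C4. Among members whose mean reached 5 CPM, 1 was higher in C2, 3 were higher in C4 and 0 were lower in C4. Over all measured genes plain CPM moved those higher in C4 from 1041 to 1562 and in C5 from 560 to 344 (348 by RPKM), while the other scalings left the 10 counts within 1.5 times. Filters and fold thresholds changed these counts by their construction.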
